A study of Rattus norvegicus with 72 samples.

Results

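Acetaminophen at 2000 mg/kg was examined 6 h after dosing in the livers of 3 rats, which were chosen by their titles and make up 6 of the 72 arrays and 3 of the 36 rats of the study. The rats (numbers 3093, 3094 and 3095) received acetaminophen in methyl cellulose by oral gavage, and the control rats received the vehicle alone in the same way. RNA from the left liver lobe of each rat was hybridised, on 2 Agilent rat oligonucleotide arrays with exchanged dyes, against a pool of control RNA in which the control rats of that dose and time had equal shares. The 12 groups of 3 rats in the study cover 50, 150, 1500 and 2000 mg/kg at 6, 24 and 48 h, and every group has a control of its own. The groups set beside the 2000 mg/kg rats at 6 h were those at 50, 150 and 1500 mg/kg at 6 h and those at 2000 mg/kg at 24 and 48 h, all given the same drug in the same vehicle. The titles of the 150 mg/kg group at 6 h call its control a mock control liver, and those of the other groups named here call it a pool. Titles give the dose in mg, and mg/kg is written out only for 150 mg/kg groups. Rats were fed the NIH-07 diet, and their strain, sex and age, and the number of rats in a pool, were not given in the sources used here.

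Each value below is a log2 ratio of 1 treated rat over its control pool, as the mean of the 2 arrays of that rat, and ± after a mean is the standard deviation over the 3 rats (n = 3) unless a standard error (SE) is named. Whether a deposited ratio is red over green dye is not stated in the labels, and it was taken from the convention of the array software, so every sign below would turn if the opposite held. A gene was called higher or lower at a Benjamini-Hochberg adjusted p below 0.05 in limma, a linear model across all genes, and a mean change of 1.5-fold or more. Rose and fell are used of called genes only, and p-values in the text are two-sided limma values adjusted over all 17299 genes tested. The pool is 1 control sample, so the variation among control rats is not part of these p-values, and contrasts between doses or times include any difference between their pools. A ratio holds no expression level, so the identity of the tissue could not be checked from the level of albumin or other hepatocyte genes. In bulk liver, fewer cells of a type and less RNA per cell cannot be told apart.

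Acetaminophen is cleared in the liver mainly by glucuronidation and sulfation, while cytochrome P450 enzymes, with electrons from the reductase Por, turn a smaller share into a reactive quinone imine that is trapped by glutathione. When glutathione runs short, this metabolite binds proteins, above all in pericentral hepatocytes, which surround the central vein and hold most of the oxidising enzymes. Transcripts known to answer such injury include metallothioneins, small cysteine-rich proteins that bind zinc and copper, targets of the redox-sensing factor NRF2, heat shock proteins, targets of the integrated stress response factors ATF4 and CHOP, and immediate early genes. Hepatocytes also change their metabolic transcripts with feeding, fasting and glucocorticoid hormone, and periportal hepatocytes, at the entry of the portal blood, carry much of gluconeogenesis and urea synthesis.

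The 6 arrays lacked 6 to 51 of 20500 probe values each, and 1 value stood at the limit of 2 that the deposited log10 ratios reach. Rat 3094 was the least like the others. Over the 17299 genes its ratios correlated at 0.613 with those of rat 3093 and at 0.717 with those of rat 3095. Rats 3093 and 3095 correlated at 0.829. Rat 3095 had the widest ratios (SD over genes 0.443, against 0.398 in rat 3093 and 0.418 in rat 3094). The 2 arrays of a rat, turned to the same direction, correlated over all genes at -0.148 in rat 3093, -0.0677 in rat 3094 and 0.156 in rat 3095. After the mean dye effect of each probe had been removed, these correlations were 0.37, 0.381 and 0.627. Of the arrays with the treated rat in Cy3, that of rat 3094 had the widest log10 ratios (SD 0.182, against 0.145 and 0.146). Of those with it in Cy5, that of rat 3094 had the narrowest (0.197, against 0.222 and 0.21). How much of the lower correlations of rat 3094 comes from the dyes was not tested.

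In these 3 livers 1377 of 17299 genes were called, which is 7.96% of those tested. Of these, 884 genes (5.11%) were higher than in the pool and 493 (2.85%) were lower, while the median of all genes was -0.01. Among the genes that rose, 213 did so by at least 2-fold, 43 by at least 4-fold and 11 by at least 8-fold. Among those that fell, the corresponding counts were 154, 14 and 2. The sign was the same on all 6 arrays for 742 of the 884 and for 427 of the 493. Rat 3093 was past 1.5-fold in the called direction for 973 of the 1377 genes, rat 3094 for 1135 and rat 3095 for 1265. With 1 rat left out, 1190 to 1632 genes were called, and 1233, 1181 and 1087 of the 1377 were among them without rat 3093, 3094 and 3095.

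The largest rises in genes with the same sign on all 6 arrays were those of the metallothioneins Mt2A and Mt1, followed by the autophagy receptor Retreg1, the zinc finger repressor Zfp354a and the amino acid enzymes Sds and Got1. The largest falls were those of Nrep, a neuronal regeneration-related protein, and of Gimd1, Erich1, Akirin2, a nuclear factor of transcription, and Amacr, a racemase of bile acid and branched fatty acid breakdown.

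**Figure D1:**
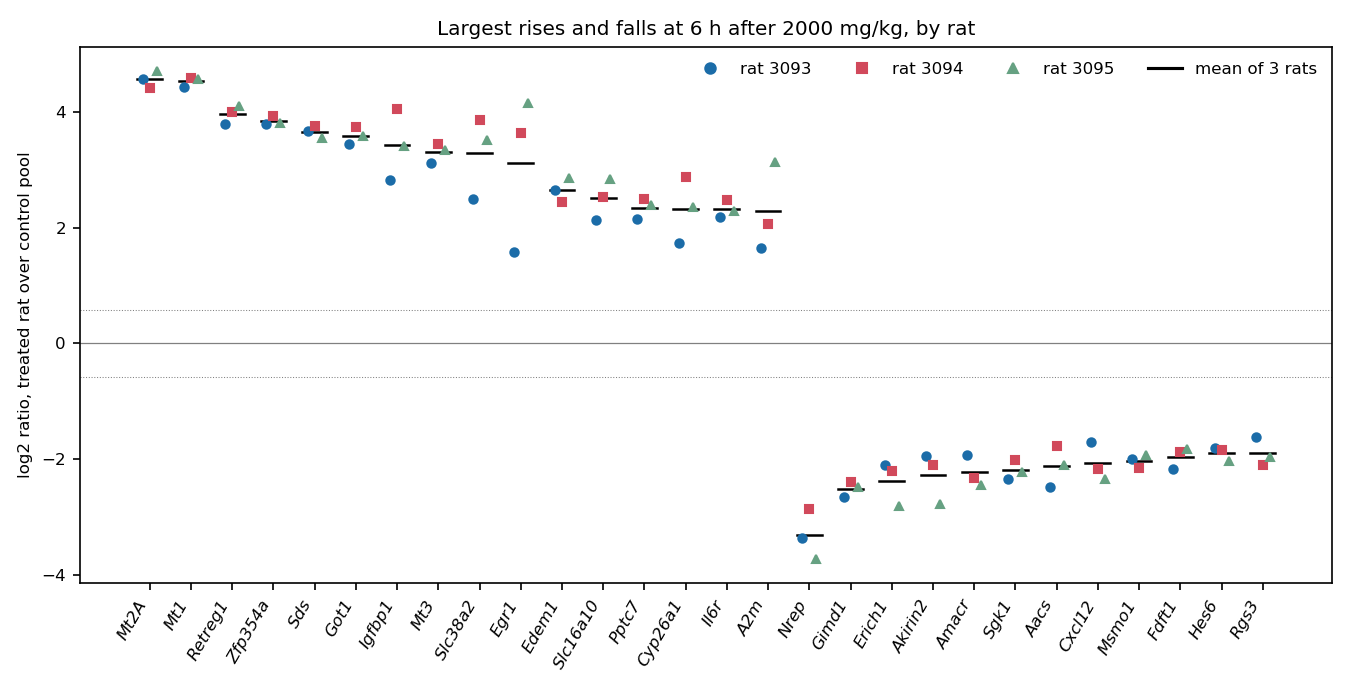
Log2 ratio of treated rat over control pool (vertical axis) for the 16 largest rises and 12 largest falls among called genes with the same sign on all 6 arrays, with 1 symbol for each of the 3 rats, a bar at their mean and dotted lines at 1.5-fold. Values of the metallothioneins, Retreg1, Zfp354a, Sds and Got1 lie close together in the 3 rats, while Igfbp1, Slc38a2, Egr1, Cyp26a1 and A2m are spread over more than 1 log2 unit.

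Metallothioneins Mt1 and Mt2A buffer zinc and copper and react with electrophiles, and both are classic targets of the zinc-sensing factor MTF1, which binds metal response elements. The log2 ratios of Mt2A were 4.58, 4.42 and 4.71 in rats 3093, 3094 and 3095, a mean of 4.57 ± 0.14. This is a 23.7-fold rise (adjusted p = 7.70e-11). Those of Mt1 were 4.44, 4.59 and 4.58, a 23.2-fold rise (adjusted p = 6.22e-12). The 3 rats were alike in both genes, and the dye orientations were not: Mt2A stood at 5.30 to 6.02 on the arrays with the treated rat in Cy3 and at 3.14 to 3.73 on those with it in Cy5. Mt3, a paralog better known from the brain, read 3.11, 3.45 and 3.34 (9.88-fold higher), and whether its probe also binds RNA of its paralogs was not tested. Of 7 measured members of a list of metal-responsive genes these 3 rose, and the other 4 were not called.

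The promoters of Mt1 and Mt2A are shown because their transcripts had the largest rises and rose together. They are the 250 bases before the start of each gene in RefSeq on assembly GRCr8, at chr19:10832976-10833225 and chr19:10838709-10838958, both on the minus strand, written 5′ to 3′ along the gene, and capitals mark the metal response element core.
Mt1: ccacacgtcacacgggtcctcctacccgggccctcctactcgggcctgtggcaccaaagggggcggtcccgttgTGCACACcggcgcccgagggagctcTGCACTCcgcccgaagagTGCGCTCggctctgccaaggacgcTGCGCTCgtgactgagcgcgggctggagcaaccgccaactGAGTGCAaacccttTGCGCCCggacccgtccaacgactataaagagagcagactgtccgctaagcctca
Mt2A: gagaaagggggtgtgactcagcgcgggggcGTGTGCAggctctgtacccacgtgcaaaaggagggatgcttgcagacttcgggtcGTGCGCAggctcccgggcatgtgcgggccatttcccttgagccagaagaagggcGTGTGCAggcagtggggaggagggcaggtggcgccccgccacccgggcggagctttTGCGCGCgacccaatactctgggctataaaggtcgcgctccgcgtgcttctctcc

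The core searched was TGCACNC or TGCGCNC on either strand. It occurred 6 times upstream of Mt1, 4 times upstream of Mt2A and 3 times upstream of Mt3. At least 1 match was present in 20.6% of the 33469 rat promoters of the same length, and at least 4 matches in 0.266%. A match describes these letters and is no evidence of binding in these livers.

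Several genes of autophagy and the endoplasmic reticulum (ER) rose with little spread between the rats. Retreg1, also known as FAM134B, is a receptor that delivers pieces of the ER to autophagosomes. Its log2 ratios were 3.80, 4.0 and 4.11 (15.6-fold, adjusted p = 1.16e-14). Map1lc3b, the LC3 protein that coats autophagosomes, read 2.13, 2.13 and 2.30 (4.56-fold, adjusted p = 1.06e-15). All 3 rats were high in both genes, with SDs of 0.16 and 0.10. Of 32 measured autophagy genes 5 rose and 0 fell, with a list median of 0.19, and the called members also included the mitophagy receptor Bnip3 at 0.98 ± 0.20 and the cargo receptor Tax1bp1 at 0.90 ± 0.33.

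The ER stress list split. Edem1, which leads misfolded glycoproteins to degradation, read 2.65, 2.44 and 2.87 (6.28-fold), with its probes at 2.09 and 3.21. Herpud1, another component of ER-associated degradation, read 1.21, 1.57 and 1.57 (2.73-fold, adjusted p = 4.07e-09). Ero1a, an oxidase of disulfide bonds, rose by 1.71-fold (0.77 ± 0.23) and the chaperone Hsp90b1 by 1.53-fold (0.61 ± 0.09). Without rat 3093 and without rat 3095, Hsp90b1 was not called. Hspa5 (BiP), the central chaperone of this pathway, read -0.22, 0.16 and -0.02 and was not called (adjusted p = 0.942). Pdia4, a disulfide isomerase, fell at -0.72 ± 0.15, and it was the only called member of the 15 measured that was lower. The median of the list was 0.04.

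The promoter of Herpud1 is shown because the ER stress list split, with Herpud1 higher and Hspa5 not called, although promoters of both are known to carry ER stress elements. It is RefSeq GRCr8 chr19:10614708-10614957, minus strand, 5′ to 3′, with the match in capitals.
Herpud1: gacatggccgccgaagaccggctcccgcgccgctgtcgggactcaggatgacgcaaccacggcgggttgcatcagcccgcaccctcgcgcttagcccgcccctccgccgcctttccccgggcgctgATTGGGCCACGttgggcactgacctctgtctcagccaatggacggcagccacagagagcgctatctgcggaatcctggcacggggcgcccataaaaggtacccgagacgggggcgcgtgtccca

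The forms searched, on either strand, were CCAAT and CCACG with 9 bases between them and ATTGG and CCACG with 1 base between them. They were found 1 time upstream of Herpud1, 1 time upstream of Hspa5 and 0 times upstream of Edem1, and in 0.108% of promoters, 36 of 33469.

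Of the enzymes that oxidise acetaminophen or support that step, Por rose, with log2 ratios of 2.19, 2.32 and 2.30 (4.82-fold, adjusted p = 4.76e-12). All 3 rats were alike. Cyp3a9 rose to 0.89 ± 0.28, and the other 8 of 10 measured members were not called. Cyp2e1, the main enzyme of this oxidation, read 0.40, 0.66 and 0.41 (adjusted p = 0.0908), and Cyp1a2 read -0.15, 0.31 and -0.04 (adjusted p = 0.911). In the list of conjugation enzymes 5 of 13 measured members fell and 0 rose, with a median of -0.22, and 3 fell without rat 3095. They were the estrogen sulfotransferase Sult1e1 at -1.15 ± 0.33, the glucuronosyltransferase Ugt1a7c at -1.13 ± 0.26, Ugp2, which makes the precursor of the sugar donor of glucuronidation, at -1.10 ± 0.08, Sult1c2 at -0.74 ± 0.16 and a further member of that subfamily. Without rat 3095, Sult1e1 was at -0.96 with an adjusted p of 0.0696. Sult1a1, a phenol sulfotransferase, read 0.39, -0.07 and 0.04 and was not called. Ugt1a7c shares most of its coding exons with other Ugt1a transcripts, and which of them its probe reads was not tested.

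Among 31 measured NRF2 targets and genes of glutathione supply, 4 rose and 2 fell, with a median of -0.02. Gclm, the modifier subunit of the enzyme that starts glutathione synthesis, read -0.58, -0.03 and -0.15. Txnrd1, a thioredoxin reductase, read -0.11, -0.20 and 0.04 and Srxn1, a sulfiredoxin, 0.12, -0.31 and 0.14. None of the 3 genes was called: Txnrd1 and Srxn1 had rats on both sides of 0, and Gclm was below 0 in every rat. Nqo1, a quinone reductase, read 0.24, 1.03 and 0.47; its mean was 0.58 ± 0.41 (adjusted p = 0.0036), just under the 1.5-fold minimum. The members that rose were heme oxygenase Hmox1, the efflux pump Abcc3 at 1.36 ± 0.24 (2.56-fold), the cystine carrier Slc7a11 at 0.99 ± 0.41 and the NRF2 partner Mafg at 0.75 ± 0.19. Abcc3 was uniform, with ratios of 1.23, 1.64 and 1.2. Nfe2l2, which encodes NRF2 itself, fell in all 3 rats, with -1.51, -1.67 and -1.58 (3.00-fold, adjusted p = 2.89e-11). Akr7a2, an aldehyde reductase, fell to -0.61 ± 0.09 and was not called without rat 3095. None of 15 measured glutathione transferases was called in limma, 5 had an unadjusted p below 0.05, and their median was 0.12.

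Heat shock, integrated stress and heme oxygenase transcripts differed widely between the rats. Hmox1 read 0.48, 3.44 and 1.86 in rats 3093, 3094 and 3095 (1.92 ± 1.48, adjusted p = 0.000712), and the cytosolic chaperone Hspa1a read 1.09, 3.40 and 1.29 (1.92 ± 1.28, adjusted p = 0.00121). Zfand2a, a heat shock-induced partner of the proteasome, read 0.50, 2.92 and 1.63. In these genes rat 3094 was the highest by more than 1 log2 unit. With only the 3 rats of this group in the model, they were not called. Without rat 3094, Hmox1 was at 1.17 with an adjusted p of 0.0532, Hspa1a at 1.19 with 0.0688 and Zfand2a at 1.07 with 0.0698, so that all lost their call. Hspa8, the constitutive chaperone, read 0.66, 1.18 and 0.44 and was at 0.55 with an adjusted p of 0.0594 without that rat. The mitochondrial chaperone Hspd1 had like values in the rats, 0.82, 0.91 and 0.93 (adjusted p = 0.000936). It was not called on the arrays with the treated rat in Cy3 alone. Of 23 measured heat shock genes 5 rose and 0 fell, with a median of 0.24. The count was 2 without rat 3094 and 5 without either of the others.

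The integrated stress response list held 9 genes that rose and 0 that fell among 35 measured, with a median of 0.22. Leaving out rat 3094 brought the rises to 4, while 11 and 8 were counted with rats 3093 and 3095 left out in turn. Slc38a2, an amino acid carrier (SNAT2), read 2.49, 3.87 and 3.51 (9.79-fold, adjusted p = 6.64e-13), and the stress-induced cofactor Nupr1 read 1.74, 2.42 and 2.27 (4.41-fold). Both were high in every rat. The CHOP target Trib3 read 0.02, 2.68 and 0.92 and Ddit3, which encodes CHOP, 0.16, 2.13 and 0.27. Atf3, a stress-induced transcription factor, read -0.31, 2.10 and -0.18 and was not called (adjusted p = 0.413). Rat 3094 alone was past 1.5-fold for Ddit3 and Atf3, and without it Trib3 was at 0.47 (adjusted p = 0.23) and Ddit3 at 0.21 (adjusted p = 0.611). Neither Trib3 nor Ddit3 was called with only the 3 rats of this group in the model. Asns, asparagine synthetase and a standard ATF4 target, read 0.04, 0.45 and 0.49 and was not called.

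**Figure D2:**
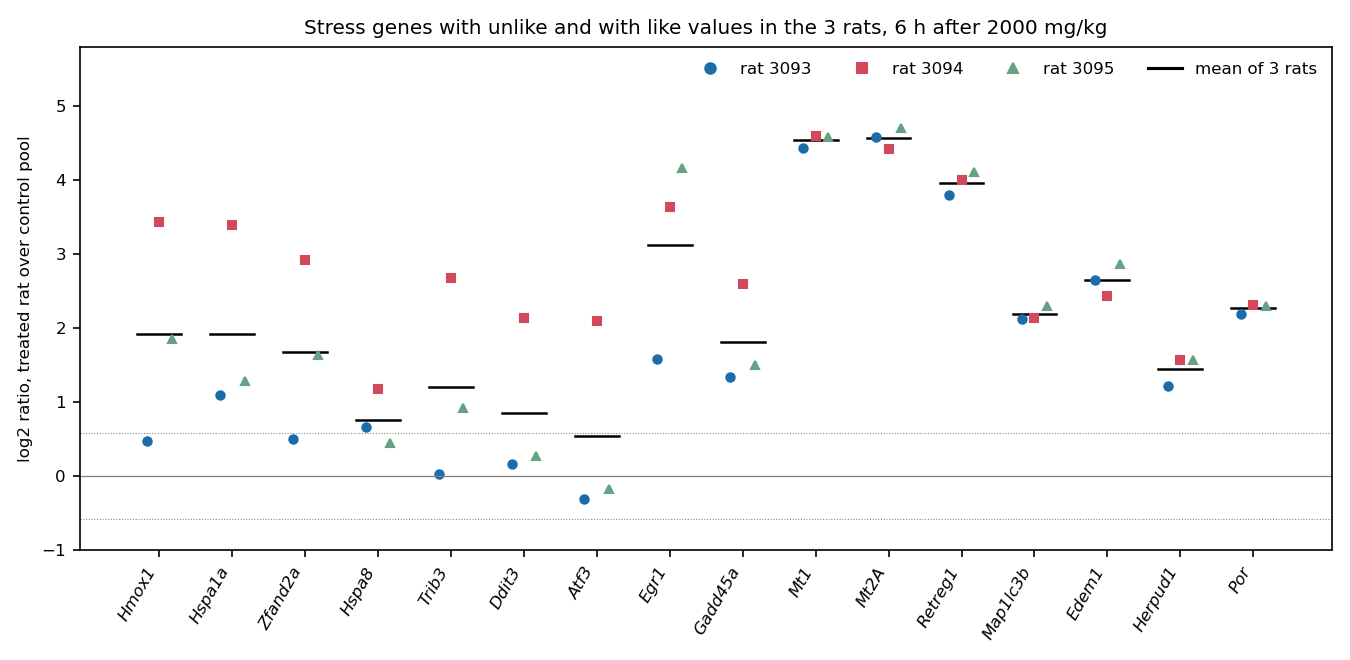
Log2 ratio of treated rat over control pool (vertical axis) for 16 stress genes, with 1 symbol for each of the 3 rats, a bar at their mean and dotted lines at 1.5-fold. For Hmox1, Hspa1a, Zfand2a, Trib3, Ddit3 and Atf3 rat 3094 stands more than 1 log2 unit above the others, and for Mt1, Mt2A, Retreg1, Map1lc3b, Edem1, Herpud1 and Por the 3 rats lie together.

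Across the 9580 genes with a symbol and values in all 3 rats, the median SD between rats was 0.12, and 34 genes had an SD above 1. Some of the 34 followed the dye, such as Tcp11 and Fam151b, named here after their values were seen. Both read above 0 on every array with the treated rat in Cy3 and below 0 on every array with it in Cy5. For Fam151b the Cy3 and Cy5 arrays read 3.84 and -1.98 in rat 3094, a mean of 0.93. In rat 3093 they read 1.42 and -4.91, a mean of -1.74. At 1500 mg/kg and 6 h a single rat also stood highest in stress genes named above. Hmox1 read 2.28 in rat 3030, against 0.34 and 0.71 in rats 3031 and 3032. In the same order Zfand2a read 1.78, 0.61 and 0.71, Trib3 1.07, 0.27 and 0.28, and Atf3 1.16, -0.09 and 0.42. Rat 3030 was also the highest of that group for Hspa1a (3.37) and Ddit3 (0.37). What set rats 3094 and 3030 apart was not tested, and the labels give no separate treatment for either.

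Immediate early and growth-arrest genes rose in 12 of 34 measured members and fell in 1 (median 0.21). Egr1, an early growth response factor, read 1.58, 3.64 and 4.16 (8.74-fold, adjusted p = 5.38e-07), and rat 3093 was the lowest by over 2 log2 units. Gadd45b, a stress sensor upstream of p38 kinases, read 1.69, 2.67 and 2.14 (4.49-fold). The antiproliferative Btg1 rose to 1.75 ± 0.39 and Ccn2, a matricellular target of YAP, to 1.72 ± 0.23. Jun read 0.46, 1.13 and 0.71; it was called in the 3 rats together (adjusted p = 0.0167) and was not called without rat 3094 or without rat 3095. Fos read -0.08, 0.41 and 0.42 and Myc -0.30, 0.69 and 0.14, and neither was called. Dusp6, a phosphatase that restrains ERK kinases and is induced by them, fell with -1.80, -2.02 and -1.47 (3.39-fold, adjusted p = 6.31e-06). In a list of feedback regulators of signalling 4 of 28 measured members fell and 1 rose: Sgk1, a kinase induced by glucocorticoid and serum, fell by 4.59-fold (-2.20 ± 0.16), Rgs3 by 3.72-fold (-1.90 ± 0.25), the liver activin subunit Inhbe by 3.39-fold (-1.76 ± 0.64) and Socs2 by 1.73-fold (-0.79 ± 0.26), while the kinase Map3k8 rose to 0.72 ± 0.38. Map3k8 was not called without rat 3093 or without rat 3095.

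The p53 target list was also mixed, with 5 of 21 measured members higher and 2 lower. Gadd45a read 1.34, 2.60 and 1.5 (3.51-fold) and Tp53inp1, which links p53 to autophagy, 1.23, 1.96 and 1.81 (3.18-fold). Cdkn1a (p21), the cell cycle inhibitor, read 0.92, 1.11 and 0.97 (2.0-fold, adjusted p = 1.66e-08), and its probes ranged from 0.46 to 1.85. Sesn2 rose to 0.67 ± 0.18 and was not called without rat 3094. Mdm2 and Ccng1, common readouts of p53, were not called at -0.49 ± 0.13 and 0.52 ± 0.12. Phlda3 fell with -0.94, -2.08 and -1.54 (2.88-fold), and the death receptor Fas fell to -0.83 ± 0.11. Of 36 measured apoptosis genes 3 rose and 2 fell: besides Bnip3 these were the survival factor Mcl1 at 0.69 ± 0.12 and Casp6 at 0.63 ± 0.14, and the BH3-only Bmf was lower at -1.29 ± 0.36. Casp6 was not called without rat 3095.

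Several enzymes of amino acid breakdown and gluconeogenesis that fasting and glucocorticoid are known to raise were higher. Sds, serine dehydratase, read 3.68, 3.75 and 3.55 (12.6-fold, adjusted p = 4.07e-09), and Got1, the cytosolic aspartate aminotransferase, read 3.46, 3.75 and 3.58 (12.1-fold, adjusted p = 2.61e-12). Tat, tyrosine aminotransferase, read 1.96, 2.45 and 2.37 (4.79-fold), and Tdo2, tryptophan dioxygenase, 1.95, 1.03 and 1.83 (3.04-fold). All 3 rats were well above 0 in these 4 genes. Of 52 measured genes of amino acid breakdown 7 rose and 1 fell, with a median of 0.12, so that most of the list was not called. Kynu, kynureninase, was the lower one at -1.11 ± 0.36. Of 6 measured urea cycle enzymes 2 rose: Ass1 at 1.01 ± 0.20 and Arg1 at 0.73 ± 0.28. Without rat 3093, 1 of them was called higher and 1 lower, and Arg1, at 0.58, was not called. Slc16a10, a carrier of aromatic amino acids, read 2.14, 2.54 and 2.85 (5.69-fold).

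Igfbp1, an insulin-repressed secreted protein that binds insulin-like growth factors, read 2.82, 4.05 and 3.42 (10.8-fold, adjusted p = 9.40e-11), with rat 3093 the lowest and rat 3094 the highest. Pck1, the committed enzyme of gluconeogenesis, read 1.42, 1.92 and 1.81 (3.29-fold, adjusted p = 2.77e-07). G6pc1, which releases glucose, read 0.17, 0.56 and 0.41 and was not called (adjusted p = 0.429). In the list of 43 measured genes of gluconeogenesis and insulin response 3 rose and 6 fell, with a median of 0.01. Foxo3 rose to 0.70 ± 0.18, with probes at -0.01 and 1.41. The falls included the glycerol channel Aqp9 at -1.05 ± 0.12, the glycogen-targeting subunit Ppp1r3b at -1.02 ± 0.34, the glucokinase regulator Gckr at -0.72 ± 0.05, and Ugp2. Gckr lost its call whichever rat was left out.

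The promoters of Igfbp1 and Pck1 are shown because these are the 2 insulin- and cAMP-controlled genes of the list with the largest rises. Capitals mark the insulin response element of Igfbp1 (RefSeq GRCr8 chr14:86261027-86261276, plus strand) and the cAMP response element of Pck1 (chr3:182348322-182348571, plus strand), both 5′ to 3′.
Igfbp1: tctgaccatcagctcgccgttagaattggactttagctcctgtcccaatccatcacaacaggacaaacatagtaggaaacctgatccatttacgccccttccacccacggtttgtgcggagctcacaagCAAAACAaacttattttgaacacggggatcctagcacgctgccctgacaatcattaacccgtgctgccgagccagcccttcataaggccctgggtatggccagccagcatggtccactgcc
Pck1: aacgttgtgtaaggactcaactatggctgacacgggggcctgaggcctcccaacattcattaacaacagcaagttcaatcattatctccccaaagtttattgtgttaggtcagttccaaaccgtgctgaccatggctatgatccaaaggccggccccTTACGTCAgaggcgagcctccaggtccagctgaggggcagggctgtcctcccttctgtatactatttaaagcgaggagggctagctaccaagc

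The insulin response element searched was CAAAACA, present in 5.46% of promoters, and the cAMP response element was TTACGTCA or TGACGTCA, present in 2.32%, both on either strand.

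Some genes of lipid synthesis fell. In the cholesterol list 7 of 20 measured members fell and 0 rose (median -0.20), and in the fatty acid synthesis list 6 of 24 fell and 1 rose (median -0.28). Msmo1, a sterol oxidase of cholesterol synthesis, read -2.01, -2.15 and -1.93 (4.08-fold, adjusted p = 1.25e-08), and Fdft1, squalene synthase, -2.17, -1.88 and -1.83 (3.88-fold, adjusted p = 4.93e-11). The 3 rats were alike in both genes. The earlier enzymes Fdps and Mvd fell less, to -0.77 ± 0.40 and -0.76 ± 0.28, and rat 3094 had the smallest change in both. Aacs, which activates acetoacetate for lipid synthesis, fell with -2.48, -1.78 and -2.10 (4.35-fold). Fasn, fatty acid synthase, read -2.10, -1.12 and -1.84 (3.21-fold, adjusted p = 0.000428), the desaturase Fads1 -1.08, -1.15 and -1.08 (2.15-fold) and the elongase Elovl6 -1.15, -0.89 and -0.79 (1.92-fold). Mid1ip1, which promotes polymerisation of acetyl-CoA carboxylase, fell by 3.51-fold on the mean of probes that read -2.97 and -0.65. Acsl4, an acyl-CoA synthetase for arachidonate, was the member that rose, at 0.81 ± 0.04. Without rat 3093 the counts of falls were 5 in the cholesterol list and 3 in the fatty acid synthesis list, where 2 then rose, and Fdps and Elovl6 were not called.

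In fatty acid oxidation 3 of 36 measured members were higher and 0 lower: Cpt2 at 1.03 ± 0.31, Cyp4a3 at 0.87 ± 0.35 and Crat at 0.83 ± 0.55. Crat read 1.2, 0.20 and 1.09, so that rat 3094 lay far under the other rats. Without that rat 6 members of the list were called higher. Cpt1a, the entry step, read 0.86, 0.16 and 0.31; it passed the p-value limit (adjusted p = 0.0341) and not the fold minimum.

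Of 29 measured genes of bile acid synthesis and transport 4 fell and 1 rose (median -0.26). Amacr read -1.93, -2.32 and -2.44 (4.70-fold, adjusted p = 3.28e-10) and Baat, which joins bile acids to glycine or taurine, -1.51, -1.76 and -1.96 (3.34-fold). Slc10a1 (NTCP), the main bile acid uptake carrier, read -0.73, -0.84 and -0.70 (1.69-fold), and the peroxisomal oxidase Acox2 read -0.12, -0.94 and -1.06. Acox2 was near 0 in rat 3093, and it was not called without rat 3095. The member that rose was the efflux pump Abcc3.

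Several nuclear receptors and transcription factors of the liver were lower: 5 of 26 measured nuclear receptors and liver factors fell and 1 rose. Nr3c1, the glucocorticoid receptor, read -0.99, -1.30 and -0.82 (2.05-fold, adjusted p = 3.89e-08). Id2 fell to -0.99 ± 0.26, Foxa2 to -0.84 ± 0.21 and the oxysterol receptor Nr1h3 to -0.66 ± 0.25, which was not called without rat 3094. The xenobiotic receptor Nr1i2 (PXR) rose to 0.73 ± 0.18. Transcripts that glucocorticoid is known to raise were split. Klf9 read 1.64, 2.29 and 2.22 (4.14-fold, adjusted p = 4.50e-10), Fkbp5 rose by 4.07-fold (2.02 ± 0.16) on the mean of probes that ranged from 0.28 to 3.92, and Per1 read 1.04, 1.06 and 1.19 (2.14-fold), while Sgk1 fell in all 3 rats, with -2.34, -2.02 and -2.23. Per2 fell with -0.57, -1.69 and -1.18 and Bhlhe40 to -0.62 ± 0.15. Neither was called without rat 3094, nor Bhlhe40 without rat 3093. In all, 5 of 20 measured clock and glucocorticoid genes rose and 4 fell. Genes that growth hormone or androgen maintain in liver fell in 4 of 19 and rose in 0: Hao2 read -1.50, -1.58 and -1.77 (3.07-fold), the carrier protein Igfals -0.94, -1.17 and -1.54 (2.32-fold), and Sult1e1 and Socs2 were the others.

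Acute phase and inflammatory transcripts changed in part. Il6r, the interleukin 6 receptor subunit, read 2.18, 2.47 and 2.30 (4.98-fold, adjusted p = 5.05e-13), with all rats alike. A2m, the main rat acute phase protease inhibitor, read 1.65, 2.06 and 3.15 (4.87-fold, adjusted p = 0.00212), and rat 3095 was the highest. Without rat 3095 it was at 1.86 with an adjusted p of 0.0538. The fibrinogen chains Fgb and Fga rose to 0.72 ± 0.18 and 0.61 ± 0.21, and Orm1 read 0.29, 0.78 and 0.70 at the limit of the call (adjusted p = 0.0463). Fga and Orm1 lost the call whichever rat was left out. Fgb kept its call there and lost it in either dye orientation alone and with 72 arrays and the rat as a block. Lcn2, which rises late in liver injury, read -0.16, 0.09 and -0.16 and was not called. Of 24 measured acute phase genes 5 rose and 0 fell (median 0.35), and the count of rises was 3, 4 and 2 without rats 3093, 3094 and 3095.

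Among 36 measured inflammation genes 4 rose and 1 fell, with a median of -0.02. The neutrophil chemokine Cxcl1 read 1.40, 2.62 and 2.21 (4.22-fold, adjusted p = 3.31e-05) and Nfkbia, the inhibitor and target of NF-kappa-B, 1.10, 1.39 and 1.44 (2.48-fold). Vcam1, an adhesion molecule, rose to 0.93 ± 0.25 and Ripk2 to 0.75 ± 0.33, the latter not without rat 3094. Cxcl12 fell in every rat, with -1.70, -2.18 and -2.35 (4.22-fold, adjusted p = 1.14e-08). The monocyte chemokine Ccl2 read -0.37, 0.13 and -0.17 and the adhesion molecule Icam1 -0.32, -0.55 and -0.31, and neither was called. Of 21 measured interferon genes 0 rose and 2 fell, Tap1 with -0.28, -2.10 and -0.85 and Gbp2 at -0.59 ± 0.19. Gbp2 was not called without rat 3093 or without rat 3095. Rat 3094 was the lowest for Tap1, which was not called without it. Bst2, an interferon-induced membrane protein that was not in that list, read 1.28, 1.62 and 1.72 (2.91-fold, adjusted p = 1.41e-07). Of 40 measured complement and coagulation genes the fibrinogen chains rose and the lectin Mbl2 fell, to -0.64 ± 0.03.

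Ribosome biogenesis genes were higher in part. Of 43 measured ribosome biogenesis factors 10 rose and 0 fell, with a median of 0.31. Rcl1 read 0.88, 1.05 and 1.19 (2.06-fold), the nucleolar GTPase Gnl3 0.84, 1.13 and 1.07 (2.02-fold) and Tsr1 0.76, 0.95 and 1.2 (1.96-fold), and Wdr3 rose to 0.87 ± 0.05. The 3 rats were similar in these genes. In polyamine and nucleotide metabolism 3 of 15 rose: Sat1, which acetylates polyamines, at 1.31 ± 0.49, Amd1 at 1.02 ± 0.16 and Odc1, the first enzyme of polyamine synthesis, at 0.60 ± 0.17. Odc1 was not called without rat 3094 or without rat 3095. Of 37 measured proteasome genes Psmd12, Psmd7 and Psma1 rose, to 0.92 ± 0.07, 0.62 ± 0.05 and 0.61 ± 0.12, and 0 fell. Psma1 was not called without rat 3095. In oxidative phosphorylation 1 of 52 measured genes rose, Sdhd at 0.61 ± 0.06, and of 46 cytosolic ribosomal protein genes 0 were called in limma, with 23 at an unadjusted p below 0.05, while the medians of these lists were 0.20 and 0.20. In cell cycle entry 1 of 28 rose, Ccne1 with 0.43, 0.78 and 1.2, and among 22 mitosis genes 1 fell, Cks2 at -0.65 ± 0.16. The call of Ccne1 was lost without rat 3094 and without rat 3095, and that of Cks2 without rat 3095.

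**Figure D3:**
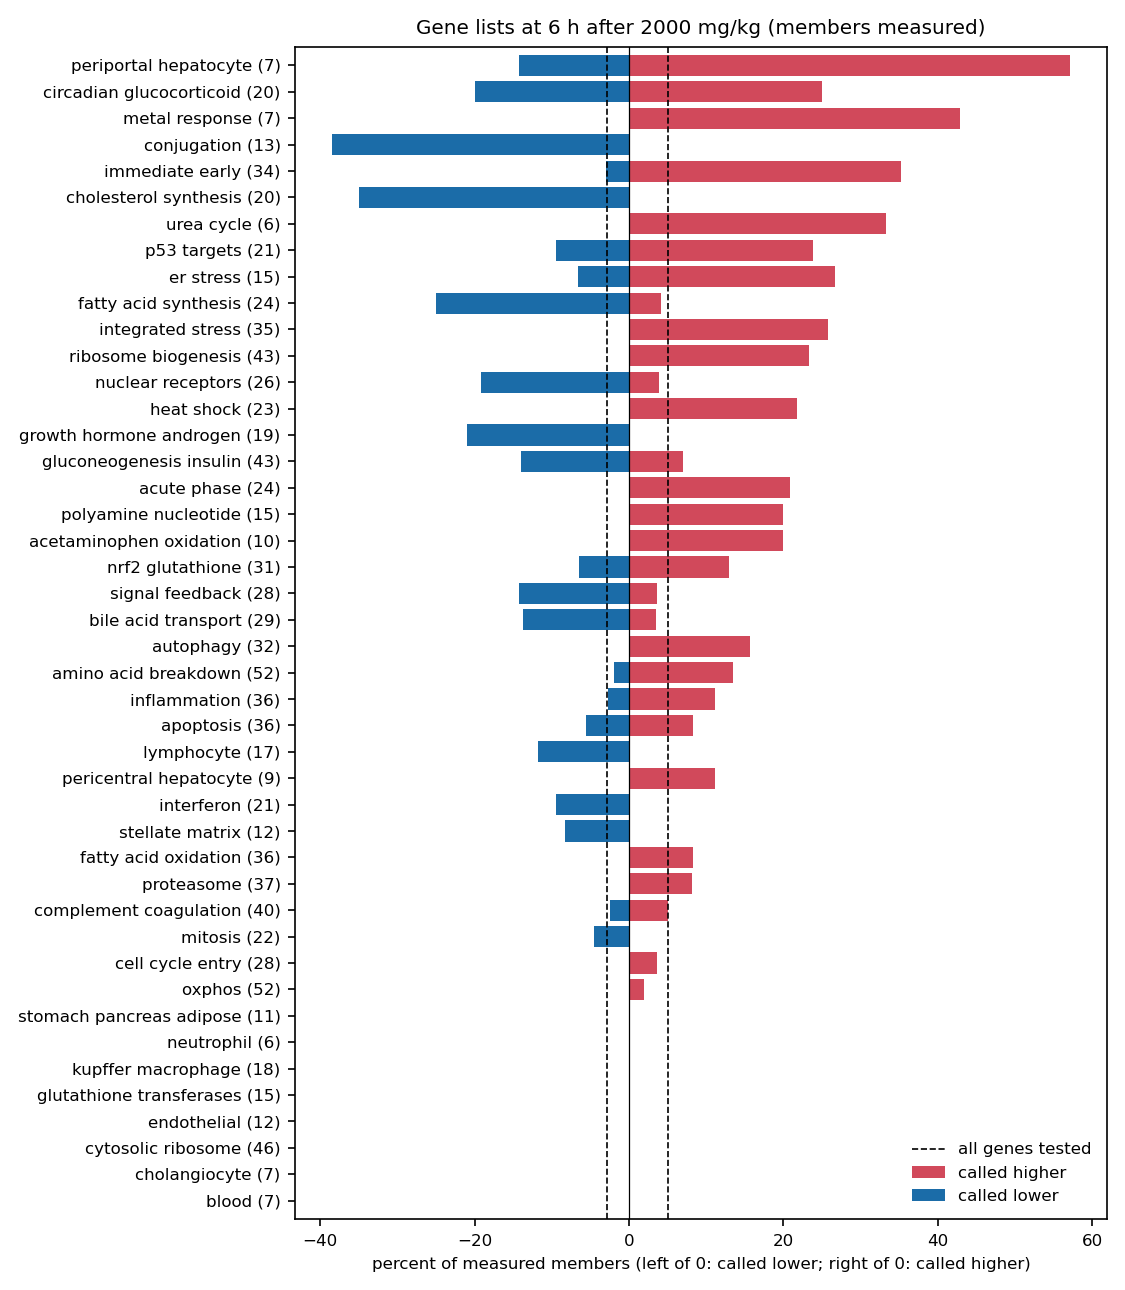
Percent of the measured members of each of 44 gene lists (number measured in brackets) called higher (bars to the right of 0) or lower (bars to the left of 0) at 6 h after 2000 mg/kg. Dashed lines give the share of all genes tested, 5.11% higher and 2.85% lower; the metal response and immediate early lists have 3 of 7 and 12 of 34 members higher, and the conjugation and cholesterol lists have 5 of 13 and 7 of 20 lower.

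Read against the 7.96% of all genes that were called, several lists had shares near the background. These were fatty acid oxidation (3 of 36), proteasome (3 of 37), complement and coagulation (3 of 40), interferon (2 of 21) and stellate cell markers (1 of 12). Shares in the pericentral (1 of 9) and lymphocyte (2 of 17) lists were 11.1% and 11.8%. Those in the mitosis, cell cycle entry and oxidative phosphorylation lists were below the background. In the glutathione transferase and cytosolic ribosomal protein lists 0 members were called, as in several cell type lists below.

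Further leading genes belonged to no list that describes them. Zfp354a (Kid-1), a transcriptional repressor first cloned from rat kidney, read 3.80, 3.92 and 3.82 (14.4-fold, adjusted p = 1.59e-10). At 6 h it was also called higher at 50 mg/kg (2.03 ± 0.57) and at 1500 mg/kg (4.62 ± 0.12). At 150 mg/kg it was not called (0.17 ± 0.64), so its means gave no ordered dose series. Cyp26a1, which breaks down retinoic acid and is induced by it, read 1.73, 2.88 and 2.36 (5.0-fold), and the mitochondrial phosphatase Pptc7 2.15, 2.49 and 2.40 (5.08-fold). Nrep read -3.36, -2.87 and -3.72 (9.98-fold lower, adjusted p = 5.05e-10), Gimd1 -2.66, -2.40 and -2.49 (5.73-fold lower) and Hes6, a repressor of the Hes family, -1.81, -1.84 and -2.04 (3.72-fold lower). Erich1 read -2.10, -2.21 and -2.81 (5.19-fold lower) and Akirin2 -1.95, -2.11 and -2.78 (4.86-fold lower), with rat 3095 the lowest in both.

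Few markers of liver cell types other than periportal hepatocytes were called. In the periportal hepatocyte list 4 of 7 measured members rose, Sds, Pck1, Ass1 and Arg1, which are also enzymes of the metabolic lists above, and Cyp2f4 fell to -0.65 ± 0.14; the median was 0.73. In the pericentral list 1 of 9 was called, Oat at 0.68 ± 0.38, and not without rat 3094; the median was -0.22. Glul, glutamine synthetase of the innermost pericentral hepatocytes, read 0.05, -0.95 and -0.38 and was not called (adjusted p = 0.0604). None of 18 measured markers of Kupffer cells and macrophages, 6 of neutrophils, 12 of endothelial cells, 7 of bile duct cells, 7 of red cells and platelets, and 11 of neighbouring tissues was called in limma. At an unadjusted p below 0.05 were 4, 0, 4, 1, 1 and 3 of them, in the same order. Their list medians lay between -0.08 and 0. In the stellate cell list Pdgfrb fell to -0.97 ± 0.22, 1 of 12, and in the lymphocyte list Klrd1 fell to -1.04 ± 0.26 and Cd5 to -0.74 ± 0.24, 2 of 17, the latter not without rat 3094. Whether these cells bear on any result was not tested.

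The genes called at 2000 mg/kg were set beside those called at the other doses at 6 h, each against its own control. Of the 884 genes higher at 2000 mg/kg, 447 (50.6%) were also called higher at 1500 mg/kg against that dose's own pool, which is 61.4% of the 728 called there. Of the 493 lower genes 198 (40.2%) were also lower at 1500 mg/kg, 40.6% of 488. At 50 mg/kg 79 of the 884 (8.94%) were called higher, 33.5% of 236, and at 150 mg/kg 2, of 4 called there.

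When 2000 mg/kg was set against 50 and 150 mg/kg (their mean) at 6 h, 1520 genes differed, 8.79% of those tested, with 893 (5.16%) higher and 627 (3.62%) lower. The largest differences with no overlap between rats were, apart from Fxyd7, in genes already described. Sds differed by 3.63 ± 0.42 (SE; adjusted p = 3.73e-07), Got1 by 3.63 ± 0.28, Egr1 by 3.62 ± 0.47, Retreg1 by 3.60 ± 0.24, Igfbp1 by 3.52 ± 0.32 and Mt1 by 3.49 ± 0.36. Sds stood at 0.10 ± 0.23 at 50 mg/kg and -0.05 ± 0.67 at 150 mg/kg. On the lower side were Nrep at -3.43 ± 0.34, Erich1 at -2.74 ± 0.31, Akirin2 at -2.70 ± 0.36, Amacr at -2.51 ± 0.22, Gimd1 at -2.40 ± 0.27 and the ion transport regulator Fxyd7 at -2.19 ± 0.23. Fxyd7 read -1.53, -1.70 and -2.15 at 2000 mg/kg. Erich1 and Akirin2 were not called at 150 mg/kg, where the means lay above the control at 1.16 ± 0.25 and 1.13 ± 0.23, against -0.43 ± 0.21 and -0.28 ± 0.15 at 50 mg/kg. Mt2A was raised at 150 mg/kg too, with 3.01, 2.46 and 3.43 in its 3 rats, above the 0.92, 0.95 and 0.91 of the 50 mg/kg rats.

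Between 2000 and 1500 mg/kg at 6 h few genes differed, and these calls depended on the fit. In the model over all 36 rats 106 genes were called, 0.613% of those tested, 65 (0.376%) higher and 41 (0.237%) lower at 2000 mg/kg. With only the 6 rats of both groups in the model limma called 0, with 1150 genes at an unadjusted p below 0.05, against 2814 in the model over all rats. There the adjusted p of the genes named below was between 0.638 and 0.748, although the differences are the same. The count also ran from 38 without rat 3095 to 458 without rat 3031 of the 1500 mg/kg group; it was 312 without rat 3030 and 180 without rat 3032. The split by direction turned to 67 higher and 113 lower without rat 3032, 46 and 61 without rat 3093, and 54 and 76 without rat 3094. Of the genes named below for this contrast, Bst2 alone kept its call whichever of the 6 rats was left out.

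Mt2A was higher at 2000 than at 1500 mg/kg by 2.10 ± 0.48 (SE; adjusted p = 0.0301) and Mt1 by 1.76 ± 0.42 (adjusted p = 0.0333), a 4.28-fold and a 3.40-fold step. At 1500 mg/kg the rats read 3.00, 2.54 and 1.87 for Mt2A and 3.25, 2.74 and 2.33 for Mt1. All 3 rats at 2000 mg/kg were above them, as the rule that picked both genes for this difference required. Map1lc3b read 1.72, 1.54 and 1.21 at 1500 mg/kg, a difference of 0.70 ± 0.13 (adjusted p = 0.0081). Abcc3 was at 0.66 ± 0.17 there, a difference of 0.70 ± 0.16 (adjusted p = 0.0267). Bst2 read -0.68, 0.15 and 0.44 at 1500 mg/kg, where it was not called, and differed by 1.57 ± 0.25 (adjusted p = 0.00186).

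The receptor tyrosine phosphatase Ptprs, the histone chaperone Anp32b and the RNA helicase Ddx6 differed by 1.40 ± 0.34, 1.10 ± 0.24 and 0.98 ± 0.22. All 3 were below their pool at 1500 mg/kg (-0.80, -0.48 and -0.37) and higher than at 2000 mg/kg in the 50 mg/kg group (1.09, 1.45 and 1.26), so they gave no ordered dose series. At 2000 mg/kg Ptprs was not called (0.59 ± 0.09, adjusted p = 0.0551), and Anp32b (0.61 ± 0.37) and Ddx6 (0.62 ± 0.11) were called and lost that call without rat 3093. Without rat 3032 the differences were 0.83 for Ptprs (adjusted p = 0.14) and 0.51 for Ddx6 (adjusted p = 0.0737).

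On the lower side Nr3c1 differed by -0.76 ± 0.16 (adjusted p = 0.0142), with -0.55, -0.34 and 0.07 at 1500 mg/kg against -0.99, -1.30 and -0.82 at 2000 mg/kg. Rarres1, a retinoid-induced gene, read -1.14, -1.83 and -1.29 (2.68-fold lower than its pool) and differed by -1.09 ± 0.24. Ldhc, a lactate dehydrogenase known from testis, read -1.47, -1.49 and -1.87 and differed by -1.24 ± 0.25. It was called lower at 50 mg/kg, at -1.08 ± 0.39, and stood at 0.37 ± 0.11 at 150 mg/kg, so it gave no ordered dose series either. The scaffold protein Mpdz read -0.50, -1.49 and -1.06 and differed by -0.92 ± 0.20. Erich1 differed by -1.63 ± 0.36 and Cyp2f4 by -0.68 ± 0.17. The 1500 mg/kg rats read 0.59, -1.06 and -1.75 for Erich1, and without rat 3030, the highest of them, the difference was -0.97 (adjusted p = 0.0641). Ttc33 (-1.33 ± 0.29) and the kinesin Kif6 (-1.28 ± 0.28) were above their pool at 1500 mg/kg, at 0.88 ± 1.04 and 0.87 ± 0.56, and were not called at 2000 mg/kg, at -0.46 ± 0.22 and -0.42 ± 0.51. In this contrast the metal response list had 2 of 7 members called higher, and every other list had at most 1 called in a direction.

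**Figure D4:**
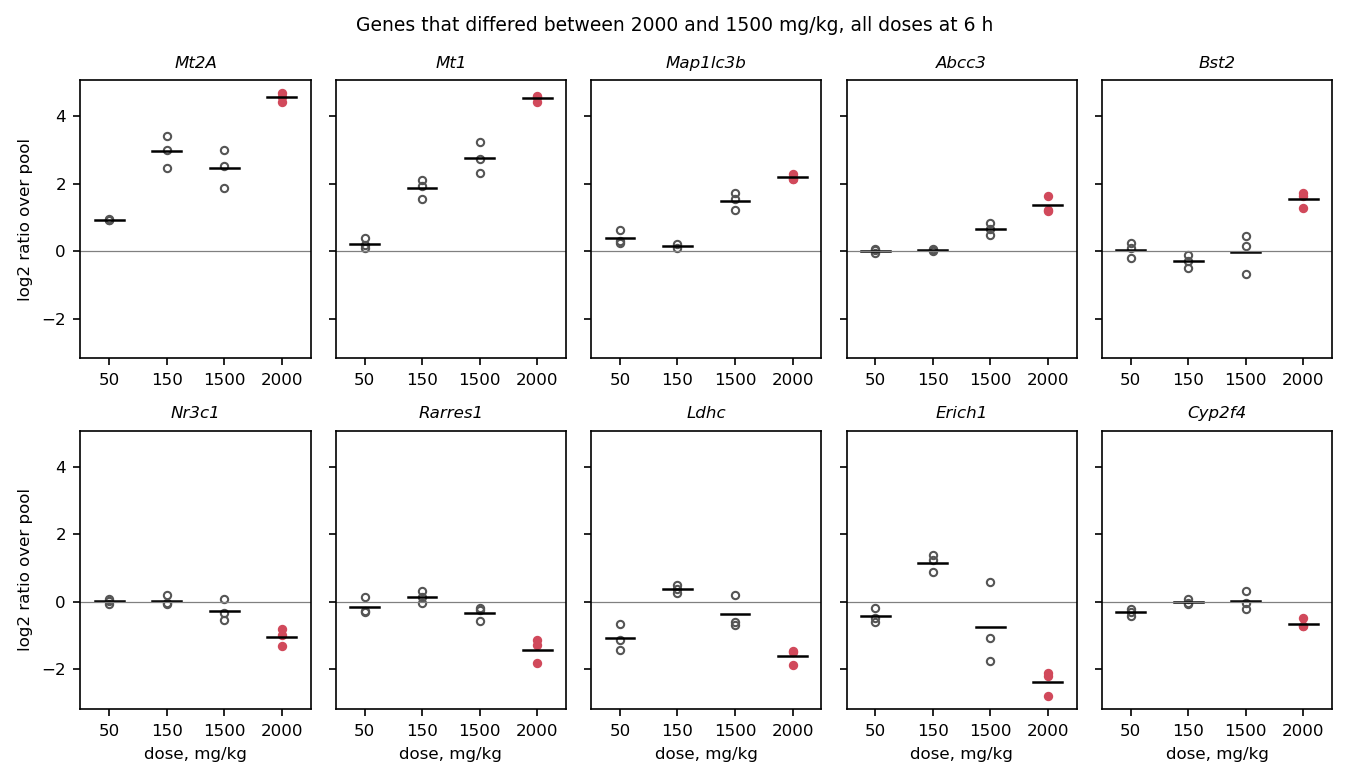
Log2 ratio of treated rat over control pool (vertical axis) against dose at 6 h (horizontal axis, evenly spaced categories in mg/kg). The 10 genes shown differed between 2000 and 1500 mg/kg in the model over all rats. Points are single rats, filled at 2000 mg/kg, and bars are means of the rats with a value. Rat 3081 of the 150 mg/kg group had no value for Map1lc3b. Mt2A is higher at 150 than at 1500 mg/kg on average, 2.97 against 2.47, and Erich1 is above its pool at 150 mg/kg.

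At 24 h after the same dose the pattern had changed. Between the 24 h and 6 h rats 2765 genes differed, 16.0% of those tested, with 1452 (8.39%) higher and 1313 (7.59%) lower at 24 h. Of the 884 genes higher at 6 h 318 (36%) were also called higher at 24 h against the pool of that time, 17.8% of the 1785 called there, and 42 were called lower. Of the 493 lower genes 174 (35.3%) were also lower at 24 h, 22.7% of 767, and 41 were called higher. At 48 h 306 of the 884 (34.6%) were called higher, 13.8% of 2216, and 89 of the 493 (18.1%) lower, 5.61% of 1586. Called in the opposite direction at 48 h were 66 of the 884 and 57 of the 493. For comparison, of all 17299 genes tested 1586 were called lower and 2216 higher at 48 h. At 24 h 767 of them were called lower and 1785 higher. Whether the shared and opposite counts differ from these shares of all genes was not tested, so the opposite calls are not evidence of reversal.

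Several of the largest rises were not present at 24 h. Zfp354a fell from its 6 h values to -1.94, -1.79 and -1.25 at 24 h, a difference of -5.51 ± 0.42 (SE; adjusted p = 5.02e-10), and was at -2.82 ± 0.41 at 48 h. Sds went to -0.68, -0.76 and -0.94 (difference -4.46 ± 0.48, adjusted p = 1.17e-07) and Got1 to -0.02, 0.77 and 0.37 (difference -3.22 ± 0.32). All rats at 24 h were below all rats at 6 h in these genes, as the rule that picked them for this difference required. Pck1 went to -1.49, -2.09 and -0.79 (difference -3.17 ± 0.28), and G6pc1, not called at 6 h, to -1.59, -3.51 and -3.10 (difference -3.11 ± 0.49). Sez6, a gene known from neurons, was at -0.44 ± 0.04 at 6 h and -3.37 ± 0.83 at 24 h (difference -2.93 ± 0.35). Of 52 measured genes of amino acid breakdown 26 were lower at 24 h than at 6 h and 0 higher, and 5 of 6 urea cycle genes were lower. Retreg1 stood at 1.5 ± 0.30 and Map1lc3b at 0.22 ± 0.09 at 24 h, differences of -2.46 ± 0.27 and -1.97 ± 0.13. Edem1 and Il6r were near their pool at 24 h, at -0.01 ± 0.21 and 0.03 ± 0.40.

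Other genes, among them genes of drug and protein stress, were not called at 6 h and were higher at 24 h. Akr7a3, an aldehyde reductase, went from -0.21, 0.04 and -0.05 to 4.25, 3.96 and 3.89, a difference of 4.11 ± 0.39 (adjusted p = 1.55e-08). The placental glutathione transferase Gstp1 went from -0.16, -0.23 and -0.15 to 2.39, 3.38 and 2.64 (2.98 ± 0.27), and Creld2, an ER stress gene, from -0.23 ± 0.08 to 2.81 ± 0.38 (3.04 ± 0.37). Ifit3, an interferon target, differed by 3.07 ± 0.49 and the neutrophil protein S100a9 by 2.85 ± 0.57, from -0.22 ± 0.18 and 0.28 ± 0.14 at 6 h. S100a9 was spread widely at 24 h, with 1.31, 4.72 and 3.37. Atf3 differed by 3.75 ± 0.67 (adjusted p = 0.000105), with 3.02, 4.57 and 5.28 at 24 h. Every rat at 24 h was above rat 3094 at 6 h, as the rule that picked Atf3 for this difference required. Hspa5 rose from -0.22, 0.16 and -0.02 to 1.12, 1.75 and 2.40 (1.78 ± 0.29). Nqo1 rose from 0.24, 1.03 and 0.47 to 2.83, 2.46 and 2.44 (1.99 ± 0.21). By list, 18 of 31 NRF2 and glutathione genes, 7 of 15 glutathione transferases, 16 of 23 heat shock genes, 10 of 15 ER stress genes and 29 of 46 cytosolic ribosomal protein genes were higher at 24 h than at 6 h.

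For Mt2A and Mt1 the difference between 24 and 6 h did not pass the test, and Mt3 was lower at 24 h, with a difference of -0.98 ± 0.32 (SE, adjusted p = 0.0221). Mt2A read 4.87, 4.49 and 4.77 at 24 h, a difference of 0.14 ± 0.48 (SE, adjusted p = 0.856), and Mt1 read 3.91, 4.25 and 4.16, a difference of -0.43 ± 0.42 (adjusted p = 0.469). At 48 h Mt2A was at 2.86 ± 0.94 and Mt1 at 1.59 ± 1.18, with wide spread between rats. Egr1 read 1.61, 3.25 and 3.32 at 24 h and 3.08, 3.39 and 3.18 at 48 h, a difference between 24 and 6 h of -0.40 ± 0.54 (adjusted p = 0.613), and A2m stood at 3.39 ± 1.51 and 4.57 ± 0.22. Nrep stayed low, with -4.12 ± 0.47 at 24 h and -3.98 ± 0.42 at 48 h. Nfe2l2, lower at 6 h, read 0.07, 0.19 and 0.11 at 24 h (1.71 ± 0.16, adjusted p = 1.09e-08).

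**Figure D5:**
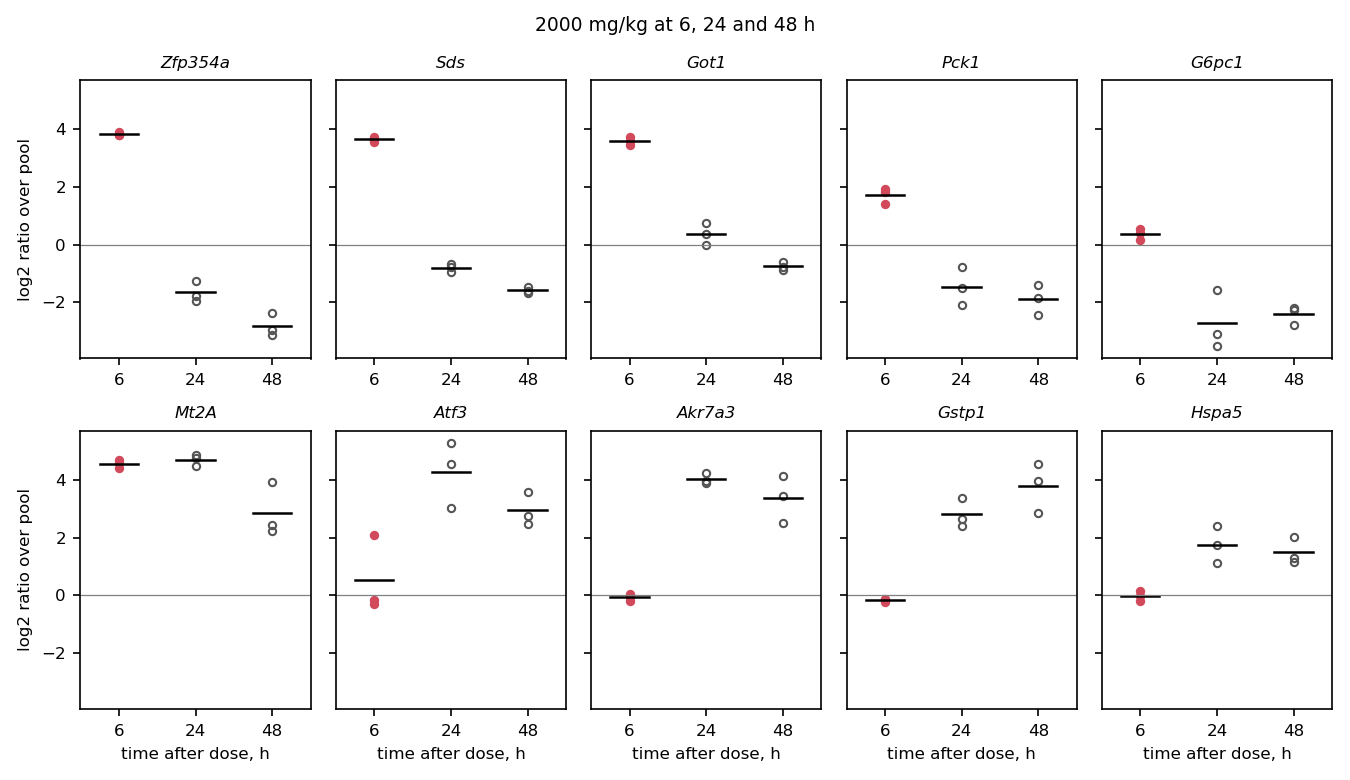
Log2 ratio of treated rat over control pool (vertical axis) against time after 2000 mg/kg (horizontal axis, categories at 6, 24 and 48 h) for 10 genes; points are single rats, filled at 6 h, and bars are means of 3. Zfp354a, Sds, Got1 and Pck1 are high at 6 h and lower later, Mt2A is high throughout, and Akr7a3, Gstp1 and Hspa5 are near 0 at 6 h and high at 24 h.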

How the data were processed

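Liver RNA of 36 rats was measured on 72 two-colour arrays, 2 for each rat with exchanged dyes. The authors deposited a column of log10 ratios per array from Agilent's Feature Extraction software (G2566AA), per the labels; its version and the normalization were not given in the sources used here. Column medians of the 6 arrays described were 0.000931 to 0.0084, so the deposited log10 values were centred. Signal intensities were not used here, and precision is limited by 3 rats.

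Ratios were converted to log2, turned to treated over pool by the dye of the treated rat, and averaged over the 2 arrays. The platform annotation gives 1 gene symbol for 12750 of 20500 probes, several for 5 and none for 7745; 12720 Entrez identifiers matched the current table and 0 symbols changed. Probes of 1 symbol were averaged (2266 genes with several). Values from 2 rats in every group were required, which left 17299 of 17403 features, 9606 with a symbol. The 12 group means were fitted over 36 rats with limma 3.58.1 in R 4.3.3 (residual degrees of freedom 24, prior 3.277), and contrasts between groups came from the same fit, which was tested on simulated data.

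Named genes carry 1 symbol and are, for the group against its pool, the 16 largest rises and 12 largest falls among called genes with 1 sign on 6 arrays; for each difference between groups, the 6 largest each way without overlap of rats; up to 4 called members each way of 44 gene lists; and index genes. The index genes Ugt1a6, Gclc, Cyp7a1, Nr1d1, Alb and Hba1 were not analysed here. Lists and genes were chosen with earlier results of these data known. Alternatives tried were array centring and scaling, other fold minimums, only the groups compared, 1 dye orientation, 72 arrays with the rat as a block, single probes, other filters, a robust prior and each rat left out.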

Additional observations from a re-analysis of the deposited data

Results flagged for a closer look

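These genes differed between groups in a test of the difference itself, in the model over all rats, and values are differences of log2 ratios. Between 2000 and 1500 mg/kg at 6 h the differences were 2.10 for Mt2A, 1.76 for Mt1, 1.57 for Bst2, 1.40 for Ptprs, 1.10 for Anp32b, 0.98 for Ddx6, 0.70 for Abcc3 and 0.70 for Map1lc3b. Lower at 2000 mg/kg were Erich1 at -1.63, Ttc33 at -1.33, Kif6 at -1.28, Ldhc at -1.24, Rarres1 at -1.09, Mpdz at -0.92, Nr3c1 at -0.76 and Cyp2f4 at -0.68. None of these 16 passed limma with only both groups in the model, where 1150 of all genes had an unadjusted p below 0.05.

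Between 24 and 6 h at 2000 mg/kg the differences were 4.11 for Akr7a3, 3.75 for Atf3, 3.07 for Ifit3, 3.04 for Creld2, 2.98 for Gstp1 and 2.85 for S100a9. Lower at 24 h were Zfp354a at -5.51, Sds at -4.46, Got1 at -3.22, Pck1 at -3.17, G6pc1 at -3.11 and Sez6 at -2.93.

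Between 2000 mg/kg and the mean of 50 and 150 mg/kg at 6 h the differences were 3.63 for Sds, 3.63 for Got1, 3.62 for Egr1, 3.60 for Retreg1, 3.52 for Igfbp1 and 3.49 for Mt1. Lower at 2000 mg/kg were Nrep at -3.43, Erich1 at -2.74, Akirin2 at -2.70, Amacr at -2.51, Gimd1 at -2.40 and Fxyd7 at -2.19.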

How the results depend on the processing

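The count at 2000 mg/kg and 6 h, 1377, was 904 once arrays were scaled to equal spread, 5564 with no fold minimum, 367 with a 2-fold minimum and 2908 on the arrays with the treated rat in Cy5 alone, where 50.9% of calls were higher against 64.2%; leaving out 1 rat gave 1190 to 1632. The 106 genes between 2000 and 1500 mg/kg became 22 with scaled arrays, 212 with no fold minimum, 18 with a 2-fold minimum, 0 with only the groups compared, 299 and 576 on the Cy5 and Cy3 arrays alone and 272 with 72 arrays and the rat as a block; leaving out 1 rat gave 38 to 458. The 2765 between 24 and 6 h became 1322 with scaled arrays, 5392 with no fold minimum and 919 with a 2-fold minimum, and 2381 to 3056 with 1 rat left out. The 1520 against the low doses became 4565 with no fold minimum, 407 with a 2-fold minimum and 3903 on the Cy5 arrays alone, and 1158 to 1785 with 1 rat left out. Apart from the settings' own fold limits and sample numbers, the causes were not tested. All 51 other counts of genes stayed within 1.5 times. Of the named genes called in the main fit or in the altered setting, 0 changed sign. Sign changes of genes called in neither were not counted. Of 141 named calls at 6 h against the pool 74 were kept in every setting, and 91 apart from the 2-fold minimum; of the 16, 12 and 12 named differences from 1500 mg/kg, from 6 to 24 h and from the low doses, 0, 12 and 12 were kept in every setting. Leaving out rat 3093, 3094 or 3095 removed 12, 20 and 16 of the 141. With only the 3 rats at 2000 mg/kg and 6 h in the model, the calls of Hmox1, Hspa1a, Zfand2a, Trib3, Ddit3 and Tap1 were lost. So were those of Oat, Crat, Fdps, Acox2, Map3k8 and Anp32b. On the arrays with the treated rat in Cy3 alone, calls lost included those of Hspd1, Bnip3, Tax1bp1, Slc7a11, Acsl4, Sdhd, Psmd7, Mvd and Klrd1. On the Cy5 arrays alone they included those of Mbl2, Pdia4, Sesn2, Per2 and Sult1e1. No paired analysis was possible because the rat numbers are unique to each group.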

Other observations

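Hmox1 had the largest SD between the 3 rats, 1.48, among genes with a symbol. Cdh23, a cadherin known from hair cells and named here after its values were seen, was next at 1.46 and was called higher at a mean of 0.79, although a single array carried it: rat 3093 read 4.97 with that rat in Cy5 and -0.01 with it in Cy3, and the other rats read -0.06 and -0.04. Tubg1, Npy5r and Prkch, also named after their values were seen, were called lower with 1 extreme array each. That array, with the treated rat in Cy5, read -5.07 in rat 3093 for Tubg1. In rat 3095 it read -4.80 for Npy5r and -4.19 for Prkch. The other arrays of these 3 genes read between -0.71 and 0.36.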
